A study of Bos taurus with 17 samples.

Results

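Lysosome and autophagy genes were followed in primary mesenchymal stem cells of the bovine umbilical cord that were cultured toward muscle on plastic or on scaffolds. The group was defined by a list of 34 symbols, put together by function with earlier results of these data known, and 33 of them had a row in the table of 12894 genes. The glycosidase MAN2B1 was not analysed here. RNA was read by MARS-seq, which sequences the 3′ ends of polyadenylated transcripts, in 15 libraries of 5 groups that the study describes as biological replicates. Cells came from a growth medium of low-glucose DMEM with 10% serum. Day 0 was the day after seeding on plastic, before the differentiation medium was added (3 libraries). That medium held 2% serum, insulin-transferrin-selenium (ITS), albumin (BSA), dexamethasone, a stable form of ascorbic acid, vascular endothelial growth factor, insulin-like growth factor and a fibroblast-like growth factor. Cells stayed in it on plastic for 3 days (day 3, 3 libraries) or 21 days (2 libraries). The media scaffold carried cells in this same medium for 21 days (4 libraries). The smart scaffold carried them for 21 days with the growth factors bound to its surface and absent from the medium (3 libraries). A sixth group, cells on scaffold at day 0, was not analysed here. Each difference between scaffold and day 0 below therefore mixes time and the change of medium with the surface. Differences between later plastic groups and day 0 mix time with the change of medium. Those between the smart scaffold and plastic mix the surface with the way the growth factors were supplied.

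Lysosomes are the acidic compartments in which cells break down proteins, glycans and lipids. Their proton pump, the V-ATPase, keeps the lumen acidic, cathepsins and other hydrolases do the digesting, and heavily glycosylated membrane proteins such as LAMP1 and LAMP2 line the wall. Autophagy wraps cytoplasm into a double membrane that carries LC3 and GABARAP proteins and then fuses with the lysosome, and the transcription factor TFEB is known to raise many genes of both systems when nutrients or growth signals are short. In stromal and matrix-forming cells, secreted cathepsins, cathepsin K above all, also cut collagen.

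Values are normalized reads, that is, read counts divided by 1 scaling factor per library. Recovered read totals ran from 2197356 (replicate 2 of plastic at day 21) to 15483745. Of the 12894 genes, the 10960 with a mean value of at least 5 were tested, and the 33 genes described here were all among them. A gene was called, and is said to have risen or fallen, at a Benjamini-Hochberg adjusted p under 0.05 in limma if log2(value + 1) also differed by 1 or more between the group means. The replicates were least alike on plastic at day 3 and day 21 (the lowest Pearson correlation between replicates was 0.961, within day 21 plastic), where single libraries often set the spread of a gene. In bulk RNA, fewer cells of a type and less RNA per cell cannot be told apart. The mesenchymal markers THY1, ENG, NT5E, CD44, ITGB1, VCAM1 and PDGFRB had reads in every group. Their summed level per library was 12328 to 12632 normalized reads at day 0, 11047 to 18910.3 at day 3, 32209 to 40039 on plastic at day 21, 27127 to 29733 on the media scaffold and 24784 to 27252 on the smart scaffold. Of 6 skeletal muscle markers 4 had a row, and nearly all of their sum was DES, the muscle intermediate filament desmin. DES had a mean of 993 at day 0, 1351 at day 3, 13070 on plastic at day 21, 11718 on the media scaffold and 10979 on the smart scaffold. The troponin gene TNNT3 rose on plastic (mean 72.7 at day 21) and had means of 0.66 and 0.38 on the scaffolds, and MYH3 and TNNC2 had group means of 5.61 at most. TNNT3 reached the filter only through the plastic libraries of day 21. Of 6 epithelial markers 3 had a row, and their rise by day 21 was that of the cadherin CDH3, with means of 16.9 at day 0, 149 on plastic at day 21, 170 on the media scaffold and 212 on the smart scaffold. KRT19 and CDH1, the defining epithelial cadherin, had group means of 4.16 and 4.22 at most. Of 6 endothelial markers TEK and VWF had a row, with a sum of 5.33 to 7.89 at day 0, 31.7 to 55.0 on plastic at day 21, 23.8 to 33.8 on the media scaffold and 26.4 to 31.2 on the smart scaffold. The sum of 4 macrophage markers was 26.8 to 30.2 at day 0, 117 to 168 on plastic at day 21 and 22.2 to 30.8 on the scaffolds. This sum joins unlike courses at low values. At day 0, on plastic at day 21 and on the media and smart scaffolds, CD14 had means of 0.94, 60.9, 4.10 and 4.72. In that order CD68 had 16.3, 16.2, 3.66 and 3.79, CSF1R 9.39, 41.3, 17.6 and 16.5, and LAPTM5 2.14, 24.4, 0.95 and 0.58. The mesenchymal markers did not move as a set. THY1 had means of 401 at day 0, 18122 on plastic at day 21, 15475 on the media scaffold and 10141 on the smart scaffold. In the same order CD44 had means of 1429, 335, 740 and 824, and ENG of 663, 3407, 614 and 576. The mesenchymal and endothelial sums, DES and CDH3 were higher in all day 21 groups than at day 0. The macrophage sum and TNNT3 were higher on plastic at day 21, while the macrophage sum on the scaffolds overlapped that of day 0. The mesenchymal and endothelial sums, DES and CDH3 thus moved with the rise of lysosome genes from day 0 to day 21. The macrophage sum and TNNT3 did so on plastic alone, and the mesenchymal sum was lower on both scaffolds than on plastic at day 21. The part of these markers in the rise was not tested.

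As a group, the lysosome and autophagy genes took up a growing share of the reads. Together they made up 0.395% ± 0.0120 of all normalized reads at day 0 (SD, n = 3), 0.548% ± 0.0588 at day 3 (n = 3) and 0.723% ± 0.0477 on plastic at day 21 (n = 2). They made up 1.01% ± 0.0468 on the media scaffold (n = 4) and 1.02% ± 0.0190 on the smart scaffold (n = 3). The ranges of these groups did not overlap, except between the scaffolds (0.938% to 1.04% and 1.00% to 1.04%). Members with many reads dominate such a sum, so the genes are described singly below, by role.

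**Figure D1:**
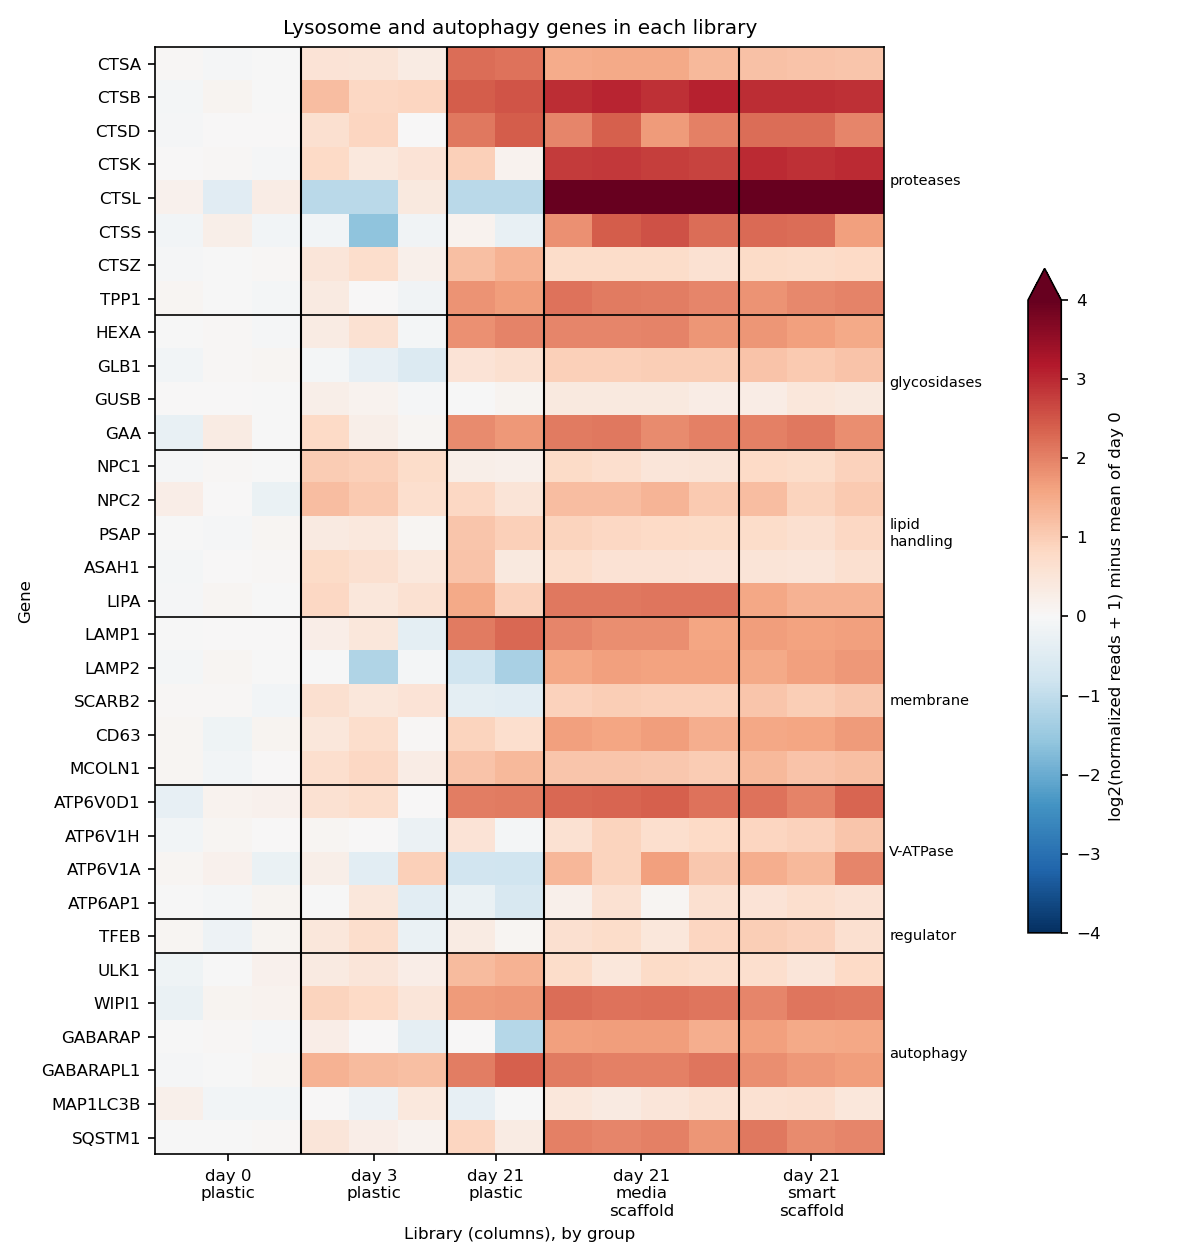
Heat map of the 33 genes (rows, by role) in the 15 libraries (columns, by group), coloured by log2(normalized reads + 1) minus the mean of the 3 day 0 libraries; the scale stops at 4, which CTSL exceeds on both scaffolds. Red spreads from day 3 to day 21, a set of genes including LAMP1 and CTSA is red on plastic at day 21, and another including CTSK, CTSL, LAMP2 and GABARAP is darker red on the scaffolds than on plastic.

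In the first 3 days on plastic 1 of the 33 genes rose and 0 fell. Of all tested genes, 6.27% rose and 3.73% fell in the same comparison. The gene was GABARAPL1, a GABARAP-family protein of the autophagosome membrane (log2 fold change 1.29, SE 0.10, adjusted p = 4.57e-08). Smaller differences were common: 18 of the 33 had an adjusted p under 0.05, 17 of them higher at day 3, and the median log2 fold change was 0.36 against −0.02 over all tested genes. Without adjustment, 19 of the 33 had a p under 0.05 in limma, beside 4542 of the 10960 tested genes. Just under the fold threshold lay the protease CTSB (0.98), the sterol carrier NPC2 (0.98) and the sterol transporter NPC1 (0.91). CTSB and NPC2 passed it when values were rescaled to the same total per library or quantile normalized, which gave 3 higher genes. Leaving out replicate 3 of day 3 also gave 3 higher genes (and 1 lower, CTSL at −1.08), and leaving out replicate 1 or 2 of day 0 or replicate 2 of day 3 gave 2.

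From day 3 to day 21 on plastic 8 genes rose and 1 fell, where 15.5% of all tested genes rose and 19.4% fell. Those that rose were LAMP1 (2.07), CTSD (1.76), CTSA (1.73), TPP1 (1.65), HEXA (1.62), ATP6V0D1 (1.62), CTSB (1.49) and GAA (1.45), with log2 fold changes in brackets. They are 4 proteases, 2 glycosidases, the membrane protein LAMP1 and a V-ATPase subunit. The one that fell was the V-ATPase subunit ATP6V1A (−1.03, adjusted p = 0.0207), from low values. It missed the call with a pseudocount of 4, quantile normalization, the compared groups fitted alone or edgeR, and without replicate 3 of day 3 or either plastic library of day 21. Without replicate 2 of day 3, 3 genes fell (ATP6V1A, LAMP2 and SCARB2). The median of the 33 was 0.55 against −0.04 over all tested genes. It was 0.30 without replicate 1 of plastic at day 21 and, with values rescaled to the same total per library, 0.23 against −0.36 over all tested genes. Rescaling to the same total gave 3 lower members (ATP6V1A, SCARB2 and NPC1), and moved the calls over all genes from 1700 higher and 2124 lower to 1148 and 3057.

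Over the whole plastic course, day 21 against day 0, 15 genes rose and 2 fell, beside 21.2% and 24.1% of all tested genes. The rises were led by CTSB (2.47), CTSD (2.26), GABARAPL1 (2.22), CTSA (2.20), LAMP1 (2.19) and ATP6V0D1 (2.06), followed by HEXA (1.91), GAA (1.81), TPP1 (1.73), WIPI1 (1.72), ULK1 (1.33), CTSZ (1.30), MCOLN1 (1.22), LIPA (1.21) and PSAP (1.04). All 15 had both day 21 libraries above the 3 day 0 libraries, as had 22 of the 33 genes and 38.6% of all tested genes. The 2 called lower were LAMP2 (−1.05) and CTSL (−1.08). The CTSL call rests on 7 reads over the day 0 libraries and 0 over those of plastic at day 21. With a floor of 3 reads over the group at 0, the fold of day 0 over plastic was at least 0.41. A fall of CTSL cannot be shown from these reads. Its call was lost with a pseudocount of 4, quantile normalization, the compared groups fitted alone, a replicate block or edgeR. LAMP2 missed the fold threshold without replicate 2 of plastic at day 21 (−0.80). Without that library 0 members fell, and without replicate 1 or 3 of day 0 only LAMP2 did. The median of the 33 was 0.78 against −0.06 over all tested genes. Rescaling to the same total lowered the median of all genes by 0.26 and the count of higher members to 12, and changed the calls over all genes from 2320 higher and 2636 lower to 1812 and 3276. This rescaling shifts all genes of a library alike, so the distance between the members' median and that of all genes could hardly change (0.83 before, 0.82 after). Quantile normalization can change it, and gave a members' median of 0.61 against −0.07 over all tested genes, a distance of 0.68.

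At day 21 the media scaffold had 8 of the 33 genes higher than plastic and 0 lower, where 20.8% of all tested genes rose and 14.6% fell. The share of members called higher was near the background, and the share called lower was below it. Those 8 were CTSL (7.67), LAMP2 (2.65), CTSS (2.33), CTSK (2.22), GABARAP (2.18), ATP6V1A (2.01), SCARB2 (1.36) and SQSTM1 (1.34). CTSL reached the filter through the scaffold libraries, and without it 7 of 32 genes rose. Among the 25 genes not called, 12 were higher and 3 lower with an adjusted p under 0.05, and the 3 were the carboxypeptidase CTSA (−0.74), the autophagy kinase ULK1 (−0.67) and CTSZ (−0.60). Without adjustment, 26 of the 33 had a p under 0.05 in limma, beside 7283 of the 10960 tested genes. The median of the 33 was 0.46 against 0.02 over all genes. The comparisons of plastic with day 0 and of scaffold with plastic share the plastic libraries of day 21, whose values enter both.

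Against the same plastic libraries, the smart scaffold had 9 genes higher and 1 lower, where 21.4% of all tested genes rose and 16.0% fell. The 9 were CTSL (7.39), LAMP2 (2.69), CTSK (2.41), ATP6V1A (2.35), GABARAP (2.14), CTSS (2.11), SCARB2 (1.47), SQSTM1 (1.40) and ATP6AP1 (1.03), and 8 of 32 rose without CTSL. ATP6AP1, an accessory subunit of the proton pump, lay at the threshold and was not called without replicate 2 of plastic (0.84) or replicate 2 of the smart scaffold (0.99). The gene that fell was CTSA (−1.06). The median of the 33 was 0.38 against 0.01 over all genes.

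Between the scaffolds 0 of the 33 genes were called in either direction in limma, beside 0.073% of all tested genes higher and 0.83% lower in the smart scaffold. Of the 33, 4 had an unadjusted p under 0.05 in limma, beside 1432 of the 10960 tested genes, so their share was near the background. EdgeR on the recovered reads also called 0 of the 33. All 33 log2 differences had 95% intervals within 1 of 0. The largest difference was that of the acid lipase LIPA (−0.67, 95% interval −0.96 to −0.38, adjusted p = 0.0141), the only one with an adjusted p under 0.05 in limma; edgeR gave 2. The other differences ran from −0.32 (CTSA, adjusted p = 0.0612) to 0.34 (ATP6V1A, adjusted p = 0.709). In 7 of the 33 genes the libraries of the scaffolds did not overlap, 3 with the smart scaffold higher and 4 lower, where 10.0% and 10.4% of all tested genes did so.

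Set against day 0 on plastic, 21 genes rose on the media scaffold and 23 on the smart scaffold, and 0 fell on either. Of all tested genes, 17.5% rose and 14.9% fell on the media scaffold, and 16.5% and 14.1% on the smart scaffold. All 33 log2 fold changes were above 0 on both, with medians of 1.58 and 1.57 against 0.00 over all genes (1.52 and 1.51 over the 32 genes without CTSL, of which 20 and 22 rose). In 32 of the 33 genes every media scaffold library lay above every day 0 library, and in all 33 on the smart scaffold, where the same held for 36.7% and 36.9% of all tested genes. The comparisons share the day 0 libraries. Rescaling to the same total gave 18 higher members on each scaffold, and moved the calls over all genes from 1913 higher and 1635 lower to 1494 and 2271 on the media scaffold, and from 1808 and 1546 to 1420 and 2155 on the smart scaffold.

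**Figure D2:**
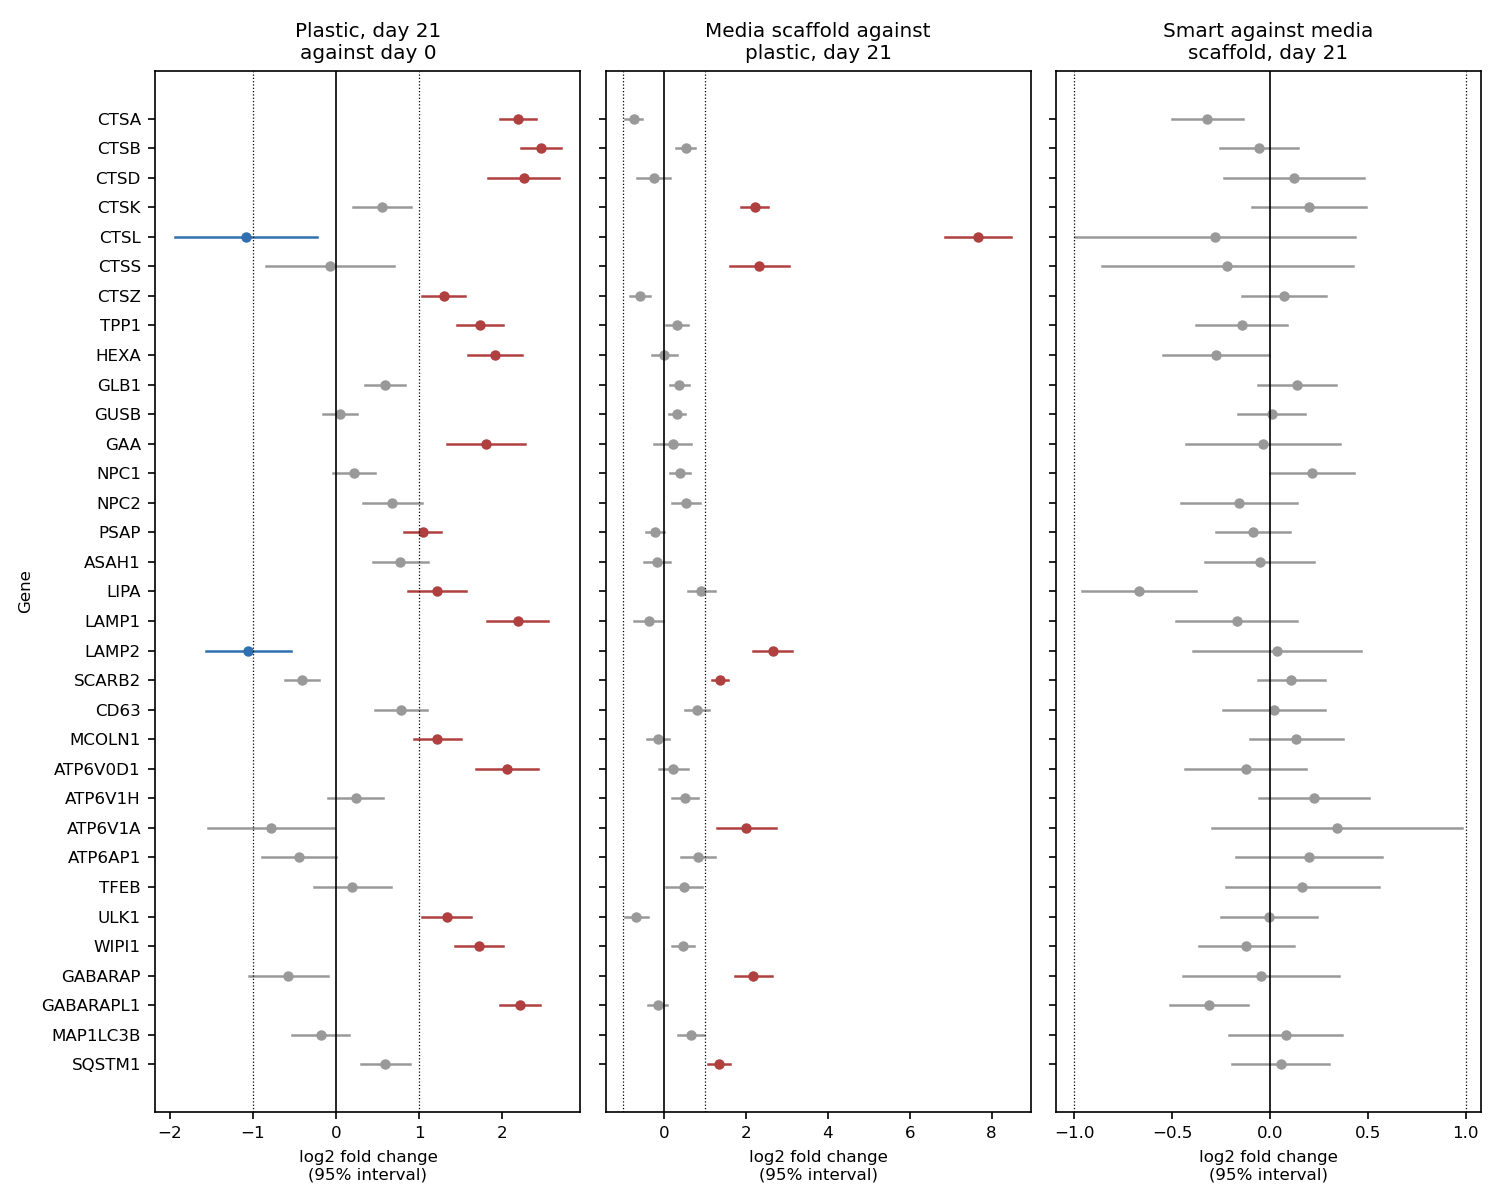
Log2 fold change of each of the 33 genes (points) with its 95% interval (bars) in 3 comparisons, with red for genes called higher, blue for lower and grey for not called; dotted lines mark 1 in either direction, and the horizontal scales differ. CTSL and LAMP2 are blue at left and red in the middle, comparisons that share the plastic libraries of day 21, and all intervals at right lie within 1 of 0.

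Among the proteases, CTSB led the rises on plastic by day 21 and CTSL had the largest fitted difference between scaffold and plastic. CTSB, a cysteine cathepsin with endo- and dipeptidase activity, measured 659, 759.9 and 686 normalized reads at day 0, 1644, 1256 and 1284 at day 3 and 3744 and 4041 on plastic at day 21. It measured 5479.9, 5775, 5338 and 5911 on the media scaffold and 5454, 5407 and 5364 on the smart scaffold. Each step up the plastic course, and the step from plastic to scaffold, was free of overlap between libraries. CTSB rose 5.55-fold on plastic by day 21 (log2 fold change 2.47, SE 0.11, adjusted p = 5.96e-12) and 8.02-fold on the media scaffold against day 0 (log2 fold change 3.00, SE 0.09, adjusted p = 3.39e-14). Against plastic at day 21 the scaffold difference was smaller and not called (log2 fold change 0.53, SE 0.11, adjusted p = 0.000372).

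CTSD, the main aspartic protease of the lysosome, gave 775, 805 and 801 normalized reads at day 0, 1231, 1454 and 799.8 at day 3 and 3454 and 4213 on plastic at day 21. On the scaffolds it gave 3106, 4133, 2609 and 3182 (media) and 3708, 3718 and 3100.1 (smart). The third day 3 library lay within the day 0 values, and the scaffold libraries overlapped those of plastic at day 21. CTSD rose 4.83-fold on plastic by day 21 (log2 fold change 2.26, SE 0.20, adjusted p = 2.73e-08), with no call between plastic and either scaffold.

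CTSA, the carboxypeptidase that protects beta-galactosidase and neuraminidase in their complex, stood at 584, 543 and 563 at day 0, 828, 807 and 703 at day 3 and 2626 and 2546 on plastic at day 21. Its scaffold libraries stood lower than plastic, at 1591, 1625, 1610.1 and 1370.1 (media) and 1259.6, 1239 and 1212 (smart), with no overlap of either scaffold with plastic or with the other. It rose 4.59-fold on plastic (log2 fold change 2.20, SE 0.10, adjusted p = 7.26e-12) and was 2.09-fold lower on the smart scaffold than on plastic at day 21 (log2 fold change −1.06, SE 0.10, adjusted p = 1.3e-07). Both scaffolds still exceeded day 0, by 1.46 and 1.13 on the log2 scale. CTSZ, a carboxypeptidase of the cysteine cathepsins, was likewise highest on plastic at day 21, with means of 1479 at day 0, 2058 at day 3, 3642 on plastic at day 21, 2406 on the media scaffold and 2523 on the smart scaffold. It rose on plastic alone (log2 fold change 1.30, SE 0.12, adjusted p = 5.02e-08).

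TPP1, a tripeptidyl peptidase whose loss causes a neuronal storage disease, measured 203, 188 and 183 at day 0, 246, 194 and 173 at day 3, 664 and 612 on plastic at day 21, 861, 804, 788 and 736 on the media scaffold and 674, 731 and 757 on the smart scaffold. Its day 3 libraries overlapped day 0, and all later libraries lay far above both. It rose 3.33-fold on plastic (log2 fold change 1.73, SE 0.13, adjusted p = 3.62e-09) and 4.17-fold on the media scaffold against day 0.

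CTSK, the collagen-cutting cathepsin best known from osteoclasts, measured 1057, 1091 and 1022 normalized reads at day 0, 1841, 1414 and 1560.2 at day 3 and 2063 and 1165 on plastic at day 21, against 7336, 7521, 7134 and 6851 on the media scaffold and 8391, 8093 and 8336 on the smart scaffold. The lowest scaffold library exceeded the highest plastic library several times over, and replicate 2 of plastic lay near day 0. CTSK was 4.47-fold higher on the media scaffold than on plastic at day 21 (log2 fold change 2.22, SE 0.16, adjusted p = 3.76e-09) and 5.13-fold higher on the smart scaffold (log2 fold change 2.41, SE 0.17, adjusted p = 2.31e-09). Over the plastic course it was not called (log2 fold change 0.55, SE 0.17, adjusted p = 0.00657).

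CTSL, a cysteine endopeptidase of broad reach, was all but unread on plastic and present on the scaffolds. It gave 7 reads over the 3 day 0 libraries, 1 read over the 3 of day 3 and 0 over the plastic libraries of day 21, and normalized values of 183, 182, 199 and 254 on the media scaffold and 150.2, 189 and 163 on the smart scaffold. With a floor of 3 reads over the group at 0, CTSL was at least 68.8-fold higher on the media scaffold (909 reads) and at least 58.1-fold higher on the smart scaffold (451 reads) than on plastic at day 21. The fitted log2 fold changes were 7.67 and 7.39 (adjusted p = 8.03e-11 and 1.8e-10), which depend on the pseudocount. The reference names give CTSL also as an older name of the related CTSV, so that reads of these genes could be split or joined by the counting. CTSS, a cathepsin known from antigen-presenting cells that stays active at neutral pH, gave few reads on plastic, at 27.4, 35.2 and 27.2 normalized reads at day 0, 27.6, 9.06 and 26.8 at day 3 and 33.1 and 24.1 at day 21. On the media scaffold it measured 108, 163, 178 and 144 and on the smart scaffold 147, 142 and 94.3, with every scaffold library above every plastic library of any day (log2 fold change 2.33, SE 0.35, adjusted p = 1.67e-05 on the media scaffold, log2 fold change 2.11, SE 0.36, adjusted p = 7.78e-05 on the smart scaffold).

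CTSK and CTSS are also known from osteoclasts and macrophages, so markers of those cells are given beside them. Of 8 osteoclast markers 2 had a row, ACP5 and ITGB3, and their summed level was 120 to 137 normalized reads per library on plastic at day 21, 602 to 658 on the media scaffold and 672 to 818 on the smart scaffold, after 324 to 343 at day 0. Of 12 macrophage markers 4 had a row, CD68, CD14, CSF1R and LAPTM5, and their sum ran the other way, from 117 to 168 on plastic at day 21 to 22.2 to 30.8 on the media scaffold and 23.1 to 29.5 on the smart scaffold (26.8 to 30.2 at day 0). Every one of these 6 genes had at least 1 read in each group. ITGB3 made up most of the osteoclast marker sum. Its means were 329 at day 0, 127 on plastic at day 21, 599 on the media scaffold and 731 on the smart scaffold. Those of ACP5 were 2.99, 1.72, 24.6 and 27.1 in the same order. ACP5 reached the filter only through the scaffold libraries. It had 1 read in all on plastic at day 21, 111 on the media scaffold and 69 on the smart scaffold. ACP5, CD68 and LAPTM5 also belong to the wider lists of lysosomal genes below, so they are not markers apart from the pathway. ITGB3 and ACP5 were higher on the scaffolds than on plastic at day 21, as were CTSK and CTSS. From day 0 to day 21 on plastic ITGB3 fell, while CTSK and CTSS were not called. The part of these markers in the rise of the cathepsins was not tested.

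**Figure D3:**
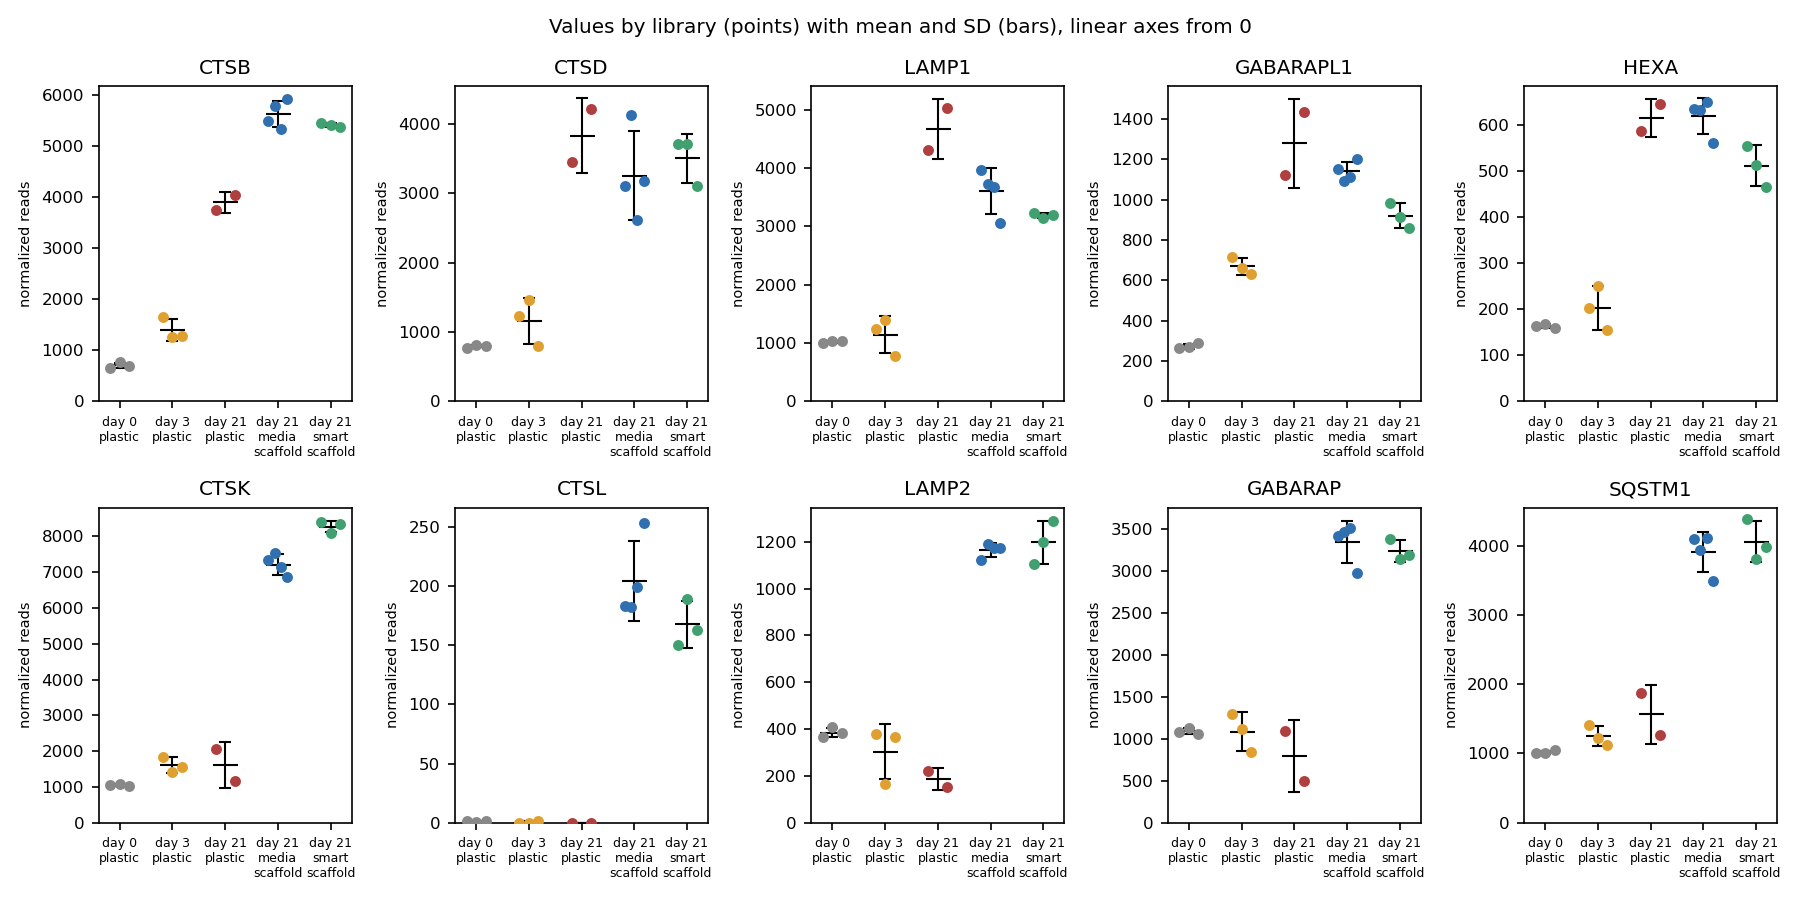
Normalized reads (vertical axes, linear from 0) of 10 genes in each library (points) by group, with the mean and SD (bars). The upper row, CTSB to HEXA, climbs on plastic by day 21, while the lower row, CTSK to SQSTM1, stays below its scaffold values in every plastic library.

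Among the glycosidases, HEXA and GAA rose on plastic and on the scaffolds, and GUSB stayed nearly level. HEXA, the alpha chain of the hexosaminidase that degrades ganglioside GM2, measured 163, 168 and 159 at day 0, 203, 251 and 155 at day 3, 588 and 646 on plastic at day 21, 637, 634, 650.4 and 562 on the media scaffold and 556, 514 and 467 on the smart scaffold. The values of day 21 lay well above all earlier ones, and those of the smart scaffold were all below plastic and the media scaffold without a call between them. HEXA rose 3.78-fold on plastic (log2 fold change 1.91, SE 0.15, adjusted p = 7.18e-09). GAA, the acid alpha-glucosidase that degrades glycogen, had a mean of 27.8 ± 6.48 (SD, n = 3) at day 0 and 98.1 ± 7.59 (SD, n = 2) on plastic at day 21 (log2 fold change 1.81, SE 0.22, adjusted p = 1.45e-06), and 114 and 111 on the media and smart scaffolds. GLB1, the beta-galactosidase read in senescence stains, was lower at day 3 than at day 0 by less than the fold threshold (log2 fold change −0.32, SE 0.10, adjusted p = 0.0239). It then stood at 1180.0 and 1247 on plastic at day 21, after 743, 824 and 846 at day 0, and reached the threshold only on the smart scaffold against day 0 (log2 fold change 1.11, SE 0.10, adjusted p = 4.47e-08). That call was lost with the same total per library (0.88). GUSB, the beta-glucuronidase often used as a reference gene, had means of 856, 925 and 884 on plastic at days 0, 3 and 21 and of 1110.1 and 1117 on the media and smart scaffolds, and was called in 0 of 8 comparisons.

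The genes of lipid handling gave few calls. NPC1 and NPC2, which pass cholesterol out of the lysosome, were nearest to the fold threshold at day 3, where all libraries of both exceeded day 0. NPC1 stood at 186, 195 and 189 at day 0, 387, 371 and 319.5 at day 3 and 224 and 219.9 on plastic at day 21, so that day 3 was its highest point on plastic. It was called in 0 comparisons, though day 21 was lower than day 3 on plastic in every library (log2 fold change −0.69, SE 0.12, adjusted p = 9.97e-05). NPC2 rose on the media scaffold against day 0 (log2 fold change 1.22, SE 0.14, adjusted p = 7.37e-07) and on the smart scaffold (log2 fold change 1.06, SE 0.15, adjusted p = 1e-05), where the call was lost without replicate 3 of day 0 or replicate 1 of the smart scaffold. The smart scaffold call was also lost with quantile normalization. With values rescaled to the same total per library, NPC2 missed the threshold on the media scaffold (0.97) and on the smart scaffold (0.83). PSAP, the precursor of the saposins that help sphingolipid enzymes, rose on plastic (log2 fold change 1.04, SE 0.11, adjusted p = 1.57e-07), near the threshold and below it without replicate 1 of plastic at day 21 (0.96). It was also below the threshold with the same total per library (0.78), quantile normalization (0.82) or edgeR (0.99). ASAH1, the acid ceramidase, was called in 0 comparisons, with means from 652 at day 0 to 1155 on plastic at day 21, where its libraries held 1448 and 862.

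LIPA, the acid lipase of cholesteryl esters and triglycerides, was the gene that differed most between the scaffolds. Its libraries held 59.1, 64.0 and 60.4 normalized reads at day 0, 110.5, 83.5 and 92.8 at day 3, 175 and 117 on plastic at day 21, 265, 266, 271 and 274 on the media scaffold and 179.9, 163 and 163 on the smart scaffold. The 4 media scaffold values lay close together and above all others, and the smart scaffold overlapped plastic. LIPA rose against day 0 on plastic (log2 fold change 1.21, SE 0.16, adjusted p = 4.32e-06), on the media scaffold (log2 fold change 2.12, SE 0.14, adjusted p = 3.86e-10) and on the smart scaffold (log2 fold change 1.45, SE 0.15, adjusted p = 1.7e-07). The call on plastic was lost without replicate 1 of plastic at day 21 (0.92) and with the same total per library (0.95).

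The membrane proteins LAMP1 and LAMP2, close relatives that coat the lysosomal wall, went opposite ways on plastic. LAMP1 measured 1004, 1030.3 and 1035 normalized reads at day 0, 1241, 1399.7 and 784 at day 3, 4316 and 5041 on plastic at day 21, 3962, 3737, 3681 and 3051 on the media scaffold and 3227, 3141 and 3200.1 on the smart scaffold. It rose 4.57-fold on plastic (log2 fold change 2.19, SE 0.17, adjusted p = 6.55e-09), and the scaffold libraries all lay between day 0 and plastic at day 21. LAMP2, which also serves chaperone-mediated autophagy, measured 367, 407 and 381 at day 0, 379, 167 and 364 at day 3, 221 and 155 on plastic at day 21, 1123, 1190.0, 1175 and 1173 on the media scaffold and 1106, 1199 and 1289 on the smart scaffold. Replicate 2 of day 3 lay with the low plastic libraries of day 21, away from the other day 3 libraries. LAMP2 was 2.05-fold lower on plastic at day 21 than at day 0 (log2 fold change −1.05, SE 0.24, adjusted p = 0.000932), a call lost without replicate 2 of plastic, as given above. On the media scaffold it was 6.21-fold higher than on plastic (log2 fold change 2.65, SE 0.23, adjusted p = 4.07e-08) and on the smart scaffold 6.38-fold (log2 fold change 2.69, SE 0.24, adjusted p = 6.09e-08). Both scaffolds also exceeded day 0, by 1.60 and 1.63 on the log2 scale.

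SCARB2, the receptor that carries glucocerebrosidase to the lysosome, had a course like that of LAMP2 after day 3. Its libraries held 476, 473 and 427 at day 0, 713, 626 and 671 at day 3, 346 and 344 on plastic at day 21, 867, 907, 887 and 879.5 on the media scaffold and 990.5, 907 and 968 on the smart scaffold. No group overlapped plastic at day 21, which was the lowest of all. SCARB2 was higher on the scaffolds than on plastic (log2 fold change 1.36, SE 0.09, adjusted p = 2.25e-09 on the media scaffold, log2 fold change 1.47, SE 0.10, adjusted p = 1.52e-09 on the smart scaffold). CD63, a tetraspanin of late endosomes and exosomes, had means of 6709.7 ± 636 (SD, n = 3) at day 0, 9001 ± 1974 (SD, n = 3) at day 3 and 11563 ± 1346 (SD, n = 2) on plastic at day 21. On the media scaffold the mean was 20078 ± 1289.5 (SD, n = 4) and on the smart scaffold 20339.6 ± 1113 (SD, n = 3), and CD63 rose on both against day 0 (1.58 and 1.60) but not against plastic at day 21 (0.80 and 0.82). MCOLN1, the calcium channel of the lysosomal membrane, rose on plastic from a mean of 247 to 577 (log2 fold change 1.22, SE 0.14, adjusted p = 4.16e-07) and stood at 522 and 573 on the media and smart scaffolds. With values rescaled to the same total per library its calls against day 0 were lost (0.96 on plastic, 0.83 on the media scaffold and 0.98 on the smart scaffold).

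The V-ATPase subunits did not move together. ATP6V0D1, the d subunit of the membrane sector, measured 672, 927 and 940.3 normalized reads at day 0, 1266, 1350.3 and 849.7 at day 3, 3453 and 3529 on plastic at day 21, 4108, 4179, 4363 and 3755 on the media scaffold and 3815, 3307 and 4201 on the smart scaffold. All libraries of day 21, on any surface, lay above all earlier ones, and it rose 4.12-fold on plastic (log2 fold change 2.06, SE 0.17, adjusted p = 1.42e-08). ATP6V1A, the catalytic subunit of the cytosolic sector, gave few reads (7 over the plastic libraries of day 21), with 13.4, 14.4 and 10.3 at day 0, 14.8, 9.06 and 25.0 at day 3, 6.90 and 6.87 on plastic at day 21, 32.8, 23.9, 41.3 and 27.6 on the media scaffold and 36.3, 32.1 and 51.7 on the smart scaffold. The plastic values of day 21 were below every other library, and the highest day 3 library overlapped the media scaffold. ATP6V1A was higher on the media scaffold than on plastic (log2 fold change 2.01, SE 0.34, adjusted p = 7.19e-05) and on the smart scaffold (log2 fold change 2.35, SE 0.36, adjusted p = 2.45e-05). ATP6V1H, a regulatory subunit, was called in 0 comparisons against plastic at day 21 (0.50 on the media and 0.73 on the smart scaffold), and ATP6AP1 had means of 269 on plastic at day 21, 483 on the media scaffold and 547 on the smart scaffold.

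TFEB, the transcription factor of lysosomal genes, was itself called in 0 of the 8 comparisons. Its libraries held 118, 97.1 and 119.6 normalized reads at day 0, 152, 181 and 92.8 at day 3, 139 and 117 on plastic at day 21, 173, 187, 153 and 204 on the media scaffold and 219.6, 210.0 and 174 on the smart scaffold. The plastic groups overlapped each other, and both scaffolds lay above day 0 without overlap. The differences from day 0 were 0.20 on plastic at day 21 (SE 0.22, adjusted p = 0.437), 0.68 on the media scaffold (SE 0.19, adjusted p = 0.00401) and 0.84 on the smart scaffold (SE 0.20, adjusted p = 0.00139), on the log2 scale. These are messenger RNA levels, and the activity of TFEB, which is set largely by its phosphorylation and place in the cell, was not measured.

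Among the autophagy genes, the GABARAP relatives parted. GABARAPL1 measured 264, 267 and 287 normalized reads at day 0, 714, 662 and 632 at day 3, 1123 and 1436 on plastic at day 21, 1154, 1093, 1113 and 1200.3 on the media scaffold and 984, 912 and 861 on the smart scaffold. It climbed at both steps on plastic without overlap, ending 4.70-fold above day 0 (log2 fold change 2.22, SE 0.11, adjusted p = 2.05e-11), although the second step was not called by itself (0.93). GABARAP measured 1081, 1134 and 1063 at day 0, 1301, 1114 and 846 at day 3, 1094 and 491 on plastic at day 21, 3422, 3467, 3516 and 2971 on the media scaffold and 3382, 3139.9 and 3192 on the smart scaffold. On plastic at day 21 one library matched day 0 and replicate 2 lay far below it, and every scaffold library lay above every plastic one. GABARAP was 4.22-fold higher on the media scaffold than on plastic (log2 fold change 2.18, SE 0.21, adjusted p = 1.62e-07) and 4.08-fold higher on the smart scaffold (log2 fold change 2.14, SE 0.23, adjusted p = 3.59e-07). MAP1LC3B, the LC3 protein most used as an autophagosome marker, was called in 0 comparisons, with means of 299 ± 39.9 (SD, n = 3) at day 0, 263 ± 40.6 (SD, n = 2) on plastic at day 21, 415 ± 30.2 (SD, n = 4) on the media scaffold and 438 ± 28.3 (SD, n = 3) on the smart scaffold.

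SQSTM1, the p62 receptor that hands ubiquitin-marked cargo to LC3 and GABARAP, measured 999.9, 1013 and 1045 at day 0, 1413, 1228 and 1128 at day 3, 1867 and 1268 on plastic at day 21, 4096, 3933, 4118 and 3497 on the media scaffold and 4383, 3809 and 3987 on the smart scaffold. The scaffold libraries all lay far above plastic (log2 fold change 1.34, SE 0.13, adjusted p = 1.71e-07 on the media scaffold, log2 fold change 1.40, SE 0.14, adjusted p = 1.91e-07 on the smart scaffold). WIPI1, which binds the lipid of the forming autophagosome, measured 163, 212 and 218 at day 0, 367, 343 and 275 at day 3, 640.4 and 656 on plastic at day 21, 919, 882, 903 and 873 on the media scaffold and 756, 874 and 840.2 on the smart scaffold. The groups stood in that order without overlap, save that the scaffolds overlapped each other. WIPI1 rose on plastic (log2 fold change 1.72, SE 0.14, adjusted p = 6.11e-09) and on both scaffolds against day 0 (2.18 and 2.06). ULK1, the kinase that starts autophagy, rose on plastic from 151, 169 and 191 at day 0 to 413 and 447 at day 21 (log2 fold change 1.33, SE 0.14, adjusted p = 1.91e-07). On the scaffolds its libraries lay between the day 0 and plastic values, with means of 269.9 and 269 (media and smart), and were not called against either.

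Wider lists of 169 related genes, of which 147 in 7 lists were tested, gave the setting for these members. They are set against the shares of all tested genes, which were 21.2% higher and 24.1% lower on plastic by day 21 and 20.8% higher and 14.6% lower on the media scaffold against plastic. Of the 37 other lysosomal hydrolases and cofactors, 16 rose and 7 fell on plastic by day 21, and 12 rose and 1 fell on the media scaffold against plastic. Of the 18 other lysosomal membrane proteins and transporters, 7 rose and 3 fell on plastic, and 4 rose and 3 fell on the media scaffold. Of the 6 genes for the delivery of lysosomal enzymes, 1 rose and 0 fell on plastic, and 2 rose and 1 fell on the media scaffold. Of the 13 other V-ATPase subunits, 1 rose and 4 fell on plastic, and 5 rose and 0 fell on the media scaffold. Of the 16 genes of the TFEB family and its mTORC1 control, 3 rose and 1 fell on plastic, and 4 rose and 2 fell on the media scaffold. Of the 41 other core autophagy genes, 12 rose and 9 fell on plastic, and 8 rose and 3 fell on the media scaffold, where the share that rose lay near that of all genes. Of the 16 other autophagy cargo receptors, 4 rose and 2 fell on plastic, and 5 rose and 1 fell on the media scaffold. Over all 7 lists, 4 of the 147 genes rose and 3 fell at day 3, beside 6.27% and 3.73% of all tested genes. On plastic by day 21 the counts were 44 and 26, and on the media scaffold against plastic 40 and 11. On the smart scaffold against plastic they were 39 and 13, beside 21.4% and 16.0% of all tested genes. Between the scaffolds they were 0 and 0, beside 0.073% higher and 0.83% lower in the smart scaffold.

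**Figure D4:**
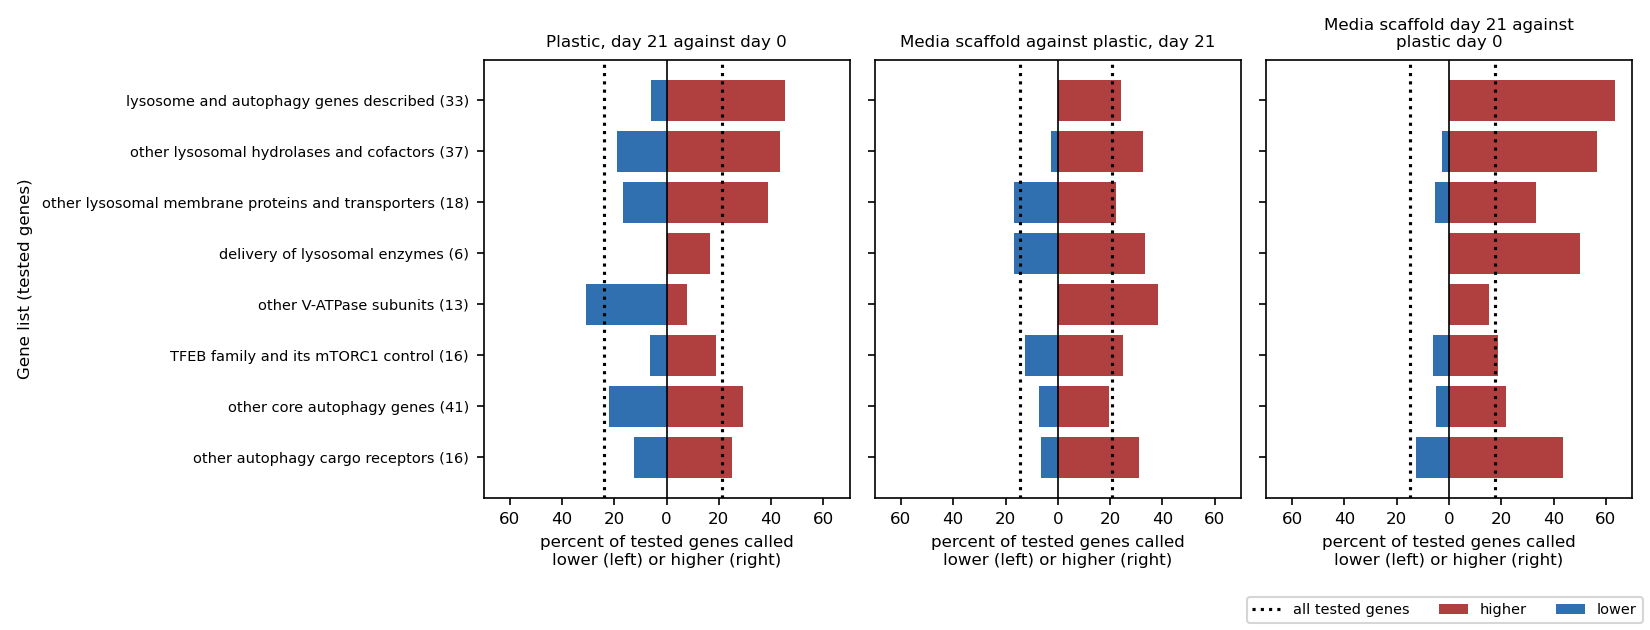
Percent of tested genes called higher (red, to the right) or lower (blue, to the left) for the 33 genes described and the 7 wider lists (rows, number tested in brackets) in 3 comparisons; dotted lines give the percent over all tested genes in each direction. The described genes and the other hydrolases reach furthest past the dotted line to the right on plastic and in the media scaffold against day 0. The lists of membrane proteins, core autophagy genes and cargo receptors also pass it in both. In the media scaffold against plastic the described genes lie near it.

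Some wider genes moved more than any member apart from CTSL. UVRAG, which takes part in the maturation of autophagosomes and endosomes, had a mean of 20.4 ± 1.24 (SD, n = 3) at day 0 and 102 ± 61.2 (SD, n = 2) on plastic at day 21. On the media scaffold its mean was 2531 ± 457 (SD, n = 4) and on the smart scaffold 1472 ± 389 (SD, n = 3) (4.75 and 3.95 against plastic). ATG5, an essential part of the enzyme that lipidates LC3, fell on plastic from 104 to 8.62 (log2 fold change −3.70, SE 0.36, adjusted p = 8.04e-08) and was back near its day 0 level on the scaffolds, at 115 and 133. MANBA, the lysosomal beta-mannosidase, was low on plastic at day 21 (mean 5.86) and higher on the scaffolds (3.90 and 3.80). On plastic by day 21 the hydrolases CPQ (5.41) and IDUA (4.27) and the mannose 6-phosphate receptor IGF2R (3.20, from a mean of 655 to 6063) rose most, and ATG5, the mitophagy receptor BNIP3 (−3.48) and the autophagy membrane protein TMEM41B (−2.36) fell most. CTSC, the dipeptidyl peptidase that activates granule proteases, had a mean of 2559 at day 0, 1765 at day 3, 555 on plastic at day 21, 228 on the media scaffold and 227 on the smart scaffold. It fell against day 0 in all 3 day 21 groups (log2 fold changes −2.21 on plastic, −3.49 on the media scaffold and −3.49 on the smart scaffold), whereas the cathepsins CTSB, CTSK and CTSS described above rose on the scaffolds against day 0.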

How the data were processed

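RNA of 15 libraries in 5 groups was measured by MARS-seq, per the labels. The submitters' processing notes name cutadapt, STAR, HTSeq, DESeq and the build ARS-UCD1.2. Use of strand and collapsing of molecular identifiers are not given in the sources used here. Reads of overlapping genes, or of a gene and its antisense partner, therefore cannot be separated. The authors deposited a normalized signal, read counts divided by 1 factor per library: 100% of values were whole multiples of the value of a single read, within 0.1 read. Names were checked against RefSeq (ARS-UCD2.0, names only), which held 33 members. The table had 2 value columns that match no titled sample, and these entered no step. Sequences were not used here.

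The test was limma 3.58.1 (R 4.3.3), with trend and robust variances, on log2(value + 1), in 1 fit of all 15 libraries with a mean per group and no replicate block. Genes with a mean of at least 5 were tested (10960; 1934 left out), two-sided, with Benjamini-Hochberg adjustment within each of 8 comparisons. Fold changes on this scale are too small where reads are few. Recovered totals of 2197356 to 15483745 reads make replicate 2 of plastic at day 21 the least precise library, in which 1 read was worth 3.44 normalized reads. Floors of 3 reads and 95% intervals on reads cover counting error only, and p-values measure the spread between these libraries. Tests were checked on simulated data. Alternatives were edgeR 4.0.16 on recovered reads, pseudocounts, filters, scalings, the compared groups alone, a replicate block and leaving out each library.

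The members, wider lists and markers were chosen with earlier results of these data known. Values in every library are given for up to 6 called members with the largest fold change per comparison and for members of a role a result turns on. From the wider lists, up to 3 called rises and 3 falls per comparison could be named.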

Additional observations from a re-analysis of the deposited data

Results flagged for a closer look

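Outlying libraries were looked for in the 33 gene groups of the media scaffold, the only group with 4 libraries, by the size of the gap between an extreme value and its neighbour. Chance alone picks about 1 in 20 such groups, and 4 were picked. CTSA, with 1370.1 normalized reads in replicate 4, lay below the other 3 libraries (1591 to 1625). CTSZ, with 2248 in replicate 4, lay below 2446 to 2479. GUSB, with 1060.2 in replicate 4, lay below 1122 to 1129. ULK1, with 232.8 in replicate 2, lay below 278 to 287. For CTSA, CTSZ and ULK1, all 4 media scaffold libraries lay below both plastic libraries of day 21, with or without the low one.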

How the results depend on the processing

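Of 89 pairs of a called gene and a comparison, 74 were called under every alternative and 15 were lost under at least 1, and 0 changed sign. Counts of higher genes at day 3 against day 0 were 3 with a common total per library or quantile normalization, where the report gives 1. Lower genes on plastic from day 3 to day 21 (1 in the report) were 3 with a common total and 0 with a pseudocount of 4, with the compared groups fitted alone or with edgeR. Lower genes on plastic from day 0 to day 21 (2 in the report) were 1 with a pseudocount of 4, quantile normalization, the compared groups fitted alone or edgeR. The cause was not tested.

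Leaving out 1 library at a time gave 1 to 3 higher and 0 to 1 lower genes at day 3 against day 0, 8 to 11 and 0 to 3 from day 3 to day 21 on plastic, and 13 to 16 and 0 to 2 from day 0 to day 21. It gave 8 to 10 higher and 0 to 0 lower on the media scaffold against plastic, 8 to 10 and 1 to 1 on the smart scaffold against plastic, 0 and 0 between the scaffolds, and 21 to 22 and 22 to 24 higher, with 0 lower, on the media and smart scaffolds against day 0.

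Over 26 pairs of libraries with the same replicate number, the correlation of deviations from the group mean ran from −0.0744 to 0.157, with 2 over 0.1. Those 2 joined plastic at day 3 and at day 21, for replicate 1 (0.157) and replicate 2 (0.112). Of 15 libraries, 4 correlated best with their own number. Deviations within a group are tied to each other, and those of the 2 plastic libraries of day 21 are mirror images. These values therefore cannot decide whether equal numbers pair the libraries. With the replicate number as a block, lower genes were 0 both from day 3 to day 21 and from day 0 to day 21 on plastic. Other counts under the block were within 1 of those reported.

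Depth limits CTSL on plastic, ATP6V1A and CTSS, which gave few reads there.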

Other observations

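Further genes of the wider lists were called in the comparisons described. At day 3 against day 0 the largest rises were those of the membrane protein LAPTM5 (log2 fold change 1.69, from 12 reads over the day 0 libraries to 28 at day 3), the peptide transporter ABCB9 (1.53) and the cystine transporter CTNS (1.16). The largest falls there were those of BNIP3 (−1.98), the autophagy gene WDR45B (−1.02) and the phospholipase PLA2G15 (−1.01). CTSF, a cysteine cathepsin, rose on plastic from a mean of 257 normalized reads at day 0 to 2009 at day 21, beside 1224 on the media scaffold and 836 on the smart scaffold. LAMTOR3, part of the scaffold that holds mTORC1 on the lysosome, had a mean of 105 at day 0 and 26.5 on plastic at day 21, and stood at 184 on each scaffold.

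Against plastic at day 21, the largest falls on the media scaffold were those of LAPTM5, EPG5 (−2.88) and WDFY3 (−2.51), the last 2 of them large autophagy proteins, and on the smart scaffold those of LAPTM5, EPG5 (−2.67) and the kinase MTOR (−2.57). These genes gave few reads: LAPTM5 had 22 on plastic at day 21, 4 on the media scaffold and 2 on the smart scaffold, and MTOR had 18 on plastic and 7 on the smart scaffold. LAPTM5 reached the filter only through the plastic libraries of day 21, where it was highest, so its falls from plastic were selected by those values. EPDR1, an ependymin-related lysosomal protein, rose against day 0 on both scaffolds (3.46 and 3.24), and ATG4D, a protease that processes LC3 and GABARAP proteins, fell (−2.43 and −2.51).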
